A study of Mus musculus with 10 samples.

Results

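The 9 genes described here encode clotting factors, their receptors and the urokinase system of plasminogen activation, out of 55359 gene identifiers counted in the series. They were chosen by symbol with the difference between the genotypes in these libraries already known: F7, F10, F5, F3, F13a1, Thbd, Procr, Plau and Plaur. Their values between the genotypes are therefore a description, are given with no p-value and support nothing further. All 9 had enough counts to be tested.

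Clotting starts when tissue factor, encoded by F3, binds factor VII on a cell surface and the complex activates factor X. Factor X with its cofactor factor V then makes thrombin, which cuts fibrinogen to fibrin, and factor XIII cross-links the fibrin. Thrombomodulin and the endothelial protein C receptor turn thrombin towards the anticoagulant protein C, while urokinase on its receptor makes the plasmin that dissolves fibrin. The liver makes most circulating factor VII and factor X, and mouse monocytes and macrophages are also known to make clotting factors, tissue factor, factor XIII-A and urokinase.

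Macrophages carrying the surface marker F4/80 were sorted by flow cytometry from melanomas of male mice and profiled by bulk RNA-seq. The Ccr2 KO group held 5 libraries from Ccr2RFP/RFP mice, in which a red fluorescent protein (RFP) allele replaces Ccr2 on both chromosomes, and the control group held 5 from Ccr2RFP/+ mice, which keep 1 working allele and are called WT in the sample titles. Both groups thus carry the RFP allele, both received Braf and Mek inhibitors daily until the tissue was taken, and all tumours had become resistant or had rebounded. The sources used here give neither ages nor whether each library came from its own animal, so the spread between libraries may be in part technical.

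The libraries held between 34639808 and 43360206 counts in genes. Ccr2, the chemokine receptor gene that was altered, was counted between 147 and 261 times in Ccr2 KO libraries and between 2225 and 7270 times in control libraries, so every library matched its label. Core macrophage markers such as Csf1r, Adgre1 and C1qa summed to between 21631 and 29762 CPM (counts scaled to library size) in Ccr2 KO libraries and between 22595 and 24116 CPM in control libraries. Control libraries 1 and 2, and 3 and 4, stood closer to each other than any other pair of a group, with a median chi-square per gene of 2.79 and 2.72 against 7.07 or more. With these pairs summed, 29 genes passed the threshold in place of 203. Of the core macrophage markers, Cd68 passed as higher, at 1169 ± 115 CPM in Ccr2 KO and 830 ± 49.4 CPM in control libraries (SD, n = 5 each). Its edgeR adjusted p was 0.0260, and 0.240 with the pairs summed.

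F7 and F10 lie next to each other in the genome and run in the same direction. The 250 bases before the start of each are shown because these 2 genes were low together, and those of Plaur because its groups overlapped. The sequences are from RefSeq on GRCm38.p6, which held 7 of the 9 genes; all 3 lie on the plus strand, at chr8:13025784-13026033, chr8:13037058-13037307 and chr7:24462233-24462482. Capitals mark the letters searched for on both strands. GAGGAA stood for PU.1 and TGANTCA for AP-1. TTGCNNAA stood for C/EBP and GGGCGG for Sp1. TATAAA stood for the TATA box and CCAAT for NF-Y.
F7: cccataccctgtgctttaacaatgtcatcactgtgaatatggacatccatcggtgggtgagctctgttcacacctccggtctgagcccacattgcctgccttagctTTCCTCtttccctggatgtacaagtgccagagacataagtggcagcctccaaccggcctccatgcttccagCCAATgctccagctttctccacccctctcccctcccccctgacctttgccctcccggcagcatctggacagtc
F10: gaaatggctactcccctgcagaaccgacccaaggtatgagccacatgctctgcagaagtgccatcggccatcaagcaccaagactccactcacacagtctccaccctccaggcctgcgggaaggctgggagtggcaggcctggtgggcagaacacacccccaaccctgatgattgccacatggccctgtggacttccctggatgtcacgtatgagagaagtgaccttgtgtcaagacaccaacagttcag
Plaur: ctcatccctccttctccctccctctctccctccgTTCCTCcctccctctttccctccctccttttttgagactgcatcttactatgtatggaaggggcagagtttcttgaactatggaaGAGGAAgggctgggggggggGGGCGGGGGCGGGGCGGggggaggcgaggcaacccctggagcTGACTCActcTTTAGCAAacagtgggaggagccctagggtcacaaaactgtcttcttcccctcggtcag
The F7 window held the PU.1 letters on the minus strand, 144 to 139 bases before the start, and the NF-Y letters 73 to 69 bases before it. The F10 window held none of the 6, so no searched letters were shared by the neighbouring pair. The Plaur window held the PU.1 letters at 2 places, the AP-1 and C/EBP letters at 1 each, and the Sp1 letters at 3 that in part overlap each other. Of 32851 promoter windows of this length, 23.3% held the PU.1 letters, 6.75% AP-1, 9.56% C/EBP, 32.7% Sp1, 12.4% TATA and 33.8% NF-Y.

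F10 and F7 were low in Ccr2 KO macrophages in every library, while the other 7 genes overlapped between the genotypes. F10 (ENSMUSG00000031444) encodes factor X, the protease at which the routes of clotting meet. It stood at 4.08, 6.02, 6.41, 1.44 and 1.28 CPM in Ccr2 KO libraries 1 to 5 and at 52.9, 86.6, 27.9, 37.3 and 122 CPM in control libraries 1 to 5. The lowest control library was thus above the highest Ccr2 KO library, and Ccr2 KO libraries 4 and 5 were lowest of all. The Ccr2 KO mean of 3.85 ± 2.44 CPM was 5.89% of the control mean of 65.3 ± 38.7 CPM (SD, n = 5 each), and the log2 fold change was -4.08, where the standard error (SE) was 0.58. These levels rested on 49 to 253 counts per Ccr2 KO library and 976 to 5014 per control library.

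F7 (ENSMUSG00000031443) encodes factor VII, the partner of tissue factor. It stood at 0.264, 1.90, 0.887, 0.636 and 0.757 CPM in Ccr2 KO libraries 1 to 5 and at 3.37, 13.4, 4.26, 4.82 and 15.7 CPM in control libraries 1 to 5. The groups did not overlap here either, and control libraries 2 and 5 were the highest for both genes. The log2 fold change was -3.22 (SE 0.60), and the Ccr2 KO mean was 10.7% of the control mean. Counts were few in Ccr2 KO libraries, between 12 and 79, against 127 to 646 in control libraries.

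**Figure D1:**
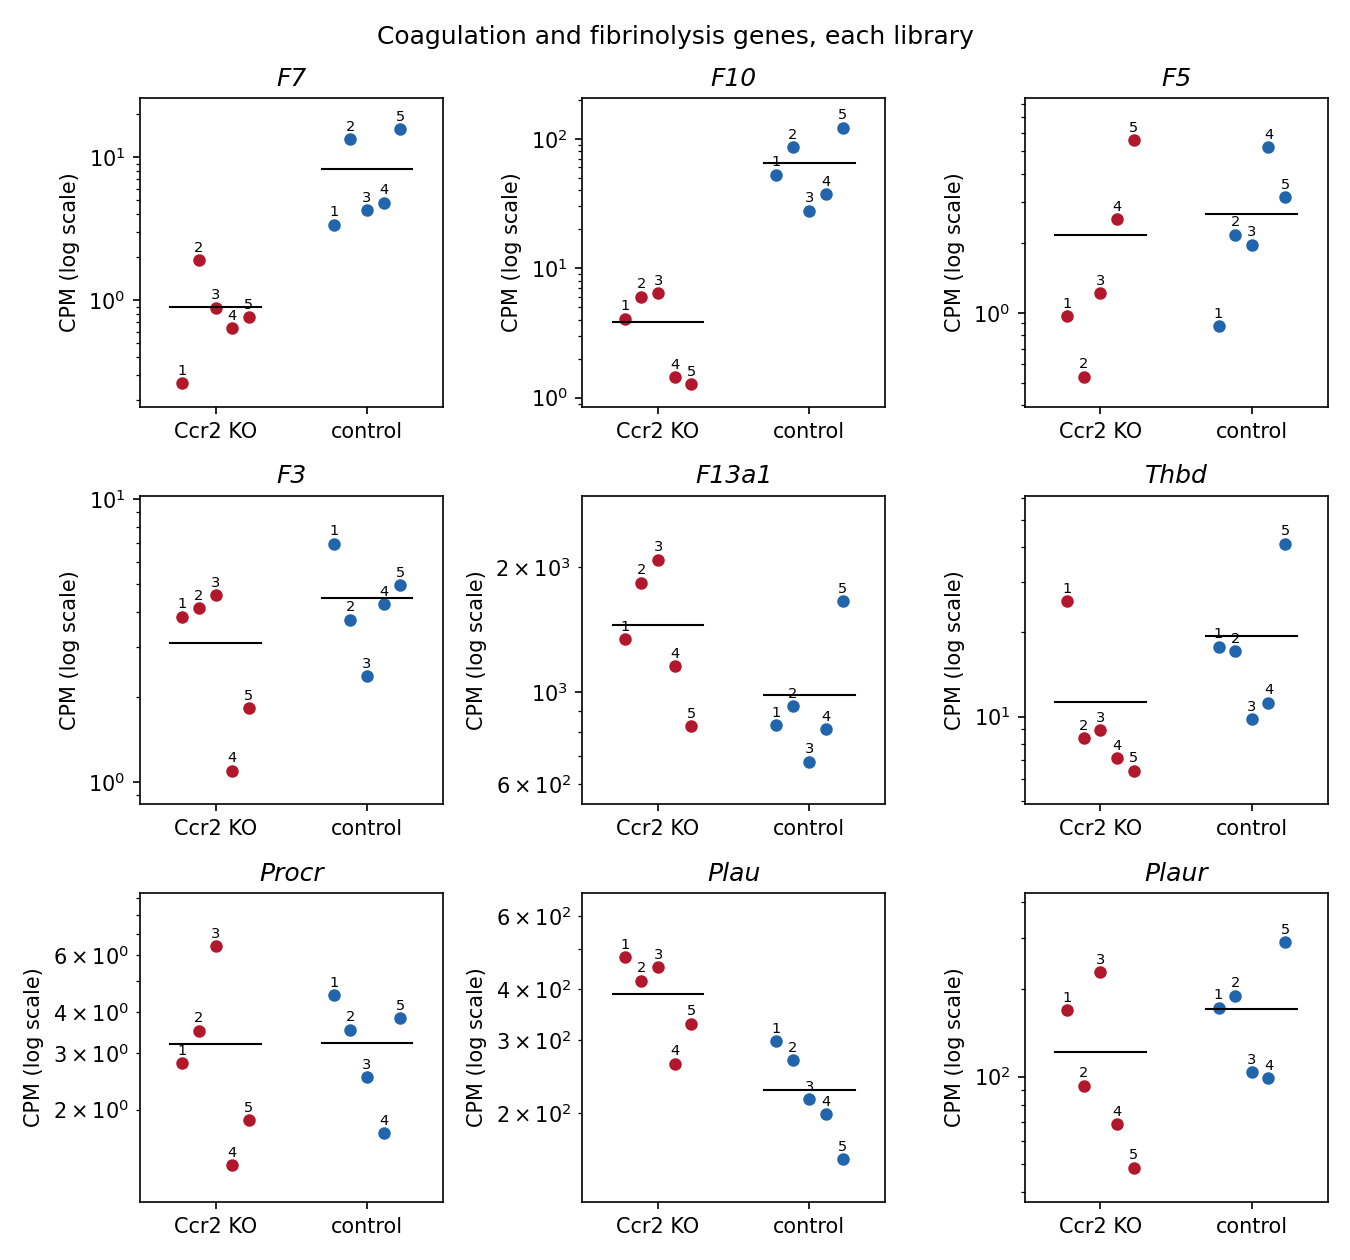
CPM (log scale) of the 9 genes in each library, Ccr2 KO (red) and control (blue), with library numbers beside the points and a line at the group mean. F7 and F10 are the panels in which the groups do not overlap, and control library 5 is the highest control library for F7, F10, F13a1, Thbd and Plaur.

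Of the 9 genes, 2 passed the threshold as lower and 0 as higher in the edgeR quasi-likelihood test (adjusted p under 0.05 over 14374 genes), where 0.543% of all genes passed as lower and 0.87% as higher. Groups did not overlap for 2 of the 9, both lower, against 2.02% of all tested genes lower and 2.69% higher. Since this contrast chose the genes, nothing is read from those shares. DESeq2 called 3 of the 9, F7 and F10 as lower and Plau as higher, and limma-voom 1, F10, with 4.56% and 3.1% of genes called by each tool in either direction. F10 passed in all 10 edgeR fits that left out 1 library, and did not pass with the replicate number of the titles as a block. All these fits reuse the values that chose the genes, so they add no support. F7 did not pass when control library 2 or 4, or Ccr2 KO library 4 or 5, was left out, nor with the alike control pairs summed. With Ccr2 KO libraries 4 and 5 summed as well, neither gene passed, and the log2 fold changes were -4.08 for F10 and -3.36 for F7.

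The pair did not keep a fixed ratio across libraries. F10 counts exceeded F7 counts by a log2 ratio of 3.95, 1.66, 2.85, 1.18 and 0.76 in Ccr2 KO libraries 1 to 5, and of 3.97, 2.69, 2.71, 2.95 and 2.96 in control libraries 1 to 5. Ccr2 KO libraries 2, 4 and 5 lay below all control libraries, while libraries 1 and 3 lay within the control range. The mean log2 ratio was 2.08 ± 1.31 in Ccr2 KO and 3.06 ± 0.53 in control libraries, a difference of -0.97. The difference was -0.87 with the alike control pairs summed. Leaving out Ccr2 KO library 5 gave -0.64, and leaving out Ccr2 KO library 1 gave -1.44.

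**Figure D2:**
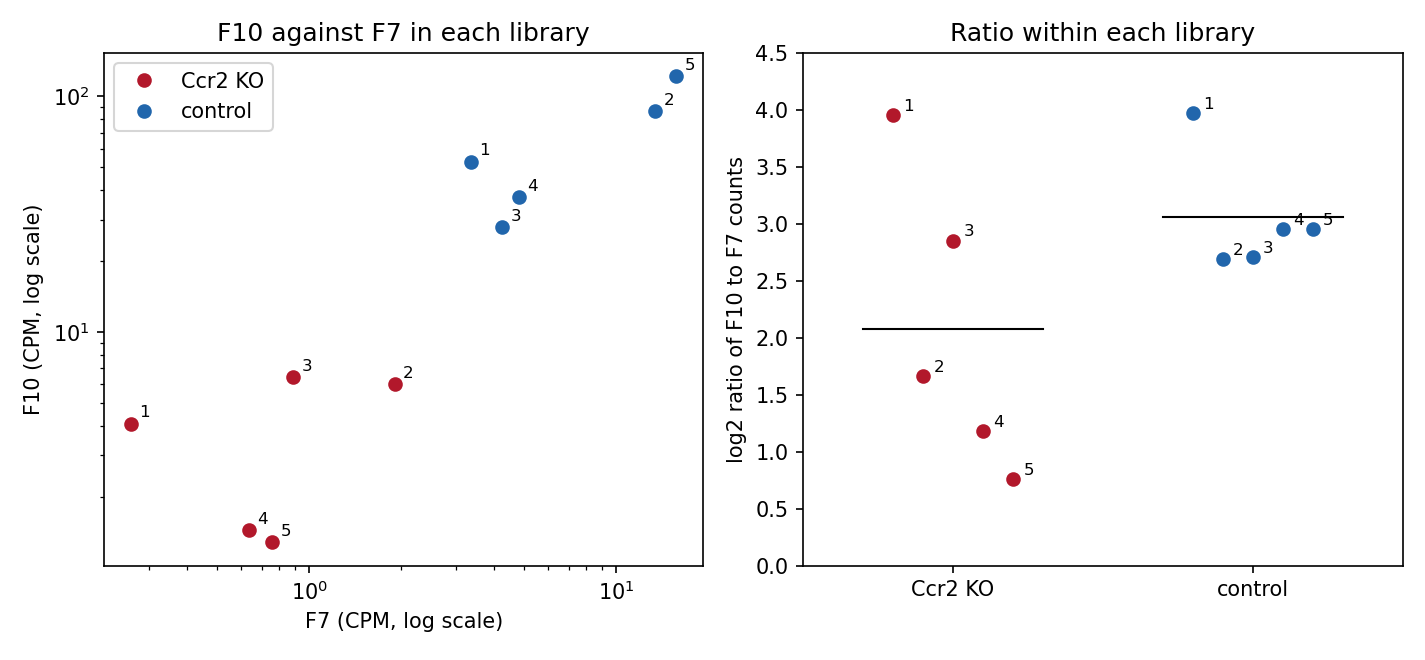
Left, F10 against F7 in CPM (both axes log scale), 1 point per library with its number, Ccr2 KO in red and control in blue. Right, the log2 ratio of F10 to F7 counts in each library with a line at the group mean; control libraries sit between 2.69 and 3.97 and Ccr2 KO libraries between 0.76 and 3.95.

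The gene just before the pair also fell in Ccr2 KO macrophages, while none of the other 6 tested among the 10 nearest neighbours passed the threshold. Mcf2l, which encodes a guanine nucleotide exchange factor and lies directly before F7, stood at 0.264, 0.313, 0.405, 0.244 and 0.313 CPM in Ccr2 KO libraries 1 to 5 and at 2.15, 5.29, 0.657, 1.04 and 1.19 CPM in control libraries 1 to 5. The groups did not overlap, and control library 2 was the highest. Its log2 fold change was -2.74 (SE 0.55; edgeR adjusted p = 0.0392), from 10 to 16 counts in Ccr2 KO libraries and 23 to 214 in control libraries. Mcf2l lost the threshold without any 1 of the libraries other than control 3 and control 5, and with the alike control pairs summed (adjusted p = 0.108).

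Of the 10 protein-coding genes taken by gene order, 5 on each side of the pair, 7 were tested, and 1 passed as lower and 0 as higher. Proz, the protein Z gene directly after F10, had 1 to 2 counts in Ccr2 KO and 1 to 8 in control libraries and was not tested. Beyond it Pcid2 and Cul4a had log2 fold changes of 0.09 (SE 0.10) and 0.10 (SE 0.09). Lamp1, a lysosomal membrane protein gene, stood at 2165 ± 142 CPM in Ccr2 KO and 1823 ± 183 CPM in control libraries (SD, n = 5 each, edgeR adjusted p = 0.232), and Grtp1 had a log2 fold change of 0.42. On the other side Atp11a and Tubgcp3 had log2 fold changes of -0.16 and 0.18, and Sox1 and Spaca7 had no counts in any library. Thus Mcf2l passed as lower and the other 6 tested neighbours did not pass, where 0.543% of all tested genes passed as lower. F7 and F10 were chosen by this contrast, so nothing is read from Mcf2l, F7 and F10 lying in a row.

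**Figure D3:**
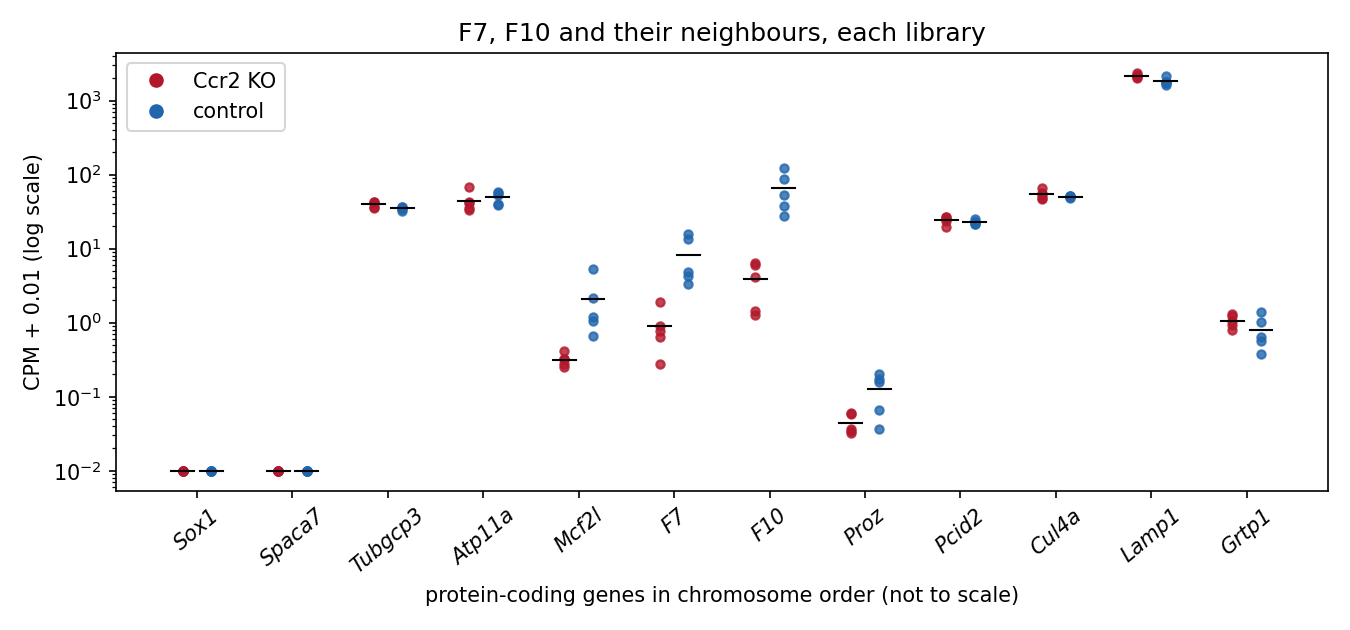
CPM plus 0.01 (log scale) of F7, F10 and the 5 protein-coding genes on each side in chromosome order, 1 point per library, Ccr2 KO (red) left of control (blue), with lines at the group means. The red points lie below all blue points for Mcf2l, F7 and F10, and the groups overlap for the other genes with counts.

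Tissue factor and factor V, the partners of factors VII and X, overlapped between the genotypes. F3 (ENSMUSG00000028128), the tissue factor gene, stood at 3.84, 4.12, 4.59, 1.10 and 1.83 CPM in Ccr2 KO libraries 1 to 5 and at 6.95, 3.75, 2.37, 4.27 and 4.98 CPM in control libraries 1 to 5. Only Ccr2 KO libraries 4 and 5 lay below the control range. Its log2 fold change was -0.53 (SE 0.40). F5 (ENSMUSG00000026579), the factor V gene, stood at 0.966, 0.529, 1.22, 2.54 and 5.59 CPM in Ccr2 KO libraries 1 to 5 and at 0.876, 2.17, 1.97, 5.22 and 3.16 CPM in control libraries 1 to 5, for a log2 fold change of -0.31 (SE 0.63). The difference was -1.03 without Ccr2 KO library 5 and 0.08 without control library 4. Its high libraries, Ccr2 KO 5 and control 4, belonged to different genotypes.

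F5 is known from large peritoneal macrophages of mice, and 2 defining genes of those cells, Gata6 and Prg4, stayed at or below 0.811 CPM in all libraries. Alox15, a lipoxygenase gene from the same marker list, stood at 1.08, 0.602, 4.23, 11.9 and 17.1 CPM in Ccr2 KO libraries 1 to 5 and at 0.690, 1.11, 4.0, 17.2 and 4.25 CPM in control libraries 1 to 5. Alox15 was highest in Ccr2 KO libraries 4 and 5 and control library 4. Of these, Ccr2 KO library 5 and control library 4 also had the highest F5. Icam2 was also highest among Ccr2 KO libraries in library 5, at 4.07 CPM, and among control libraries in library 4, at 8.35 CPM. Timd4, Garnl3, Lyve1 and Selp were not highest in both of those libraries. Timd4 averaged 3.89 ± 2.19 CPM in Ccr2 KO and 0.536 ± 0.371 CPM in control libraries (SD, n = 5 each, edgeR adjusted p = 0.0648). Garnl3 was higher in Ccr2 KO with no overlap and Icam2 lower with no overlap, at log2 fold changes of 0.76 and -1.18 (edgeR adjusted p = 0.110 and 0.168). Lyve1 and Selp had log2 fold changes of 0.53 and -2.46, and 0 of the 6 tested genes passed. The part that this marker list plays in the F5 values was not tested; its 8 genes summed to 17.5 to 40.9 CPM in Ccr2 KO and 16.3 to 35.4 CPM in control libraries.

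F13a1 was abundant and stood higher in most Ccr2 KO libraries, opposite to F10. F13a1 (ENSMUSG00000039109), which encodes the catalytic chain of factor XIII, stood at 1343, 1838, 2090.2, 1154 and 828 CPM in Ccr2 KO libraries 1 to 5 and at 833, 924, 679, 812 and 1655 CPM in control libraries 1 to 5. Control library 5 lay apart from the other control libraries and inside the Ccr2 KO range. The log2 fold change was 0.56 (SE 0.29) and did not pass. Set against F13a1 within each library, the log2 ratio of F10 counts ran from -9.64 to -8.25 in Ccr2 KO and from -4.61 to -3.42 in control libraries.

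The receptors of the protein C pathway overlapped between the genotypes. Thbd (ENSMUSG00000074743), the thrombomodulin gene, stood at 25.7, 8.37, 8.97, 7.11 and 6.42 CPM in Ccr2 KO libraries 1 to 5 and at 17.7, 17.0, 9.80, 11.2 and 41.2 CPM in control libraries 1 to 5. In 4 Ccr2 KO libraries it lay below every control library, and Ccr2 KO library 1 lay above 4 of the 5 control libraries. Its log2 fold change was -0.78 (SE 0.48), -1.33 without Ccr2 KO library 1 and -0.28 without control library 5. Procr (ENSMUSG00000027611), the protein C receptor gene, ran from 1.34 to 6.41 CPM in Ccr2 KO and from 1.69 to 4.51 CPM in control libraries, with a log2 fold change of -0.02 (SE 0.42) that turned to 0.02 with no composition factor.

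The urokinase gene had a positive log2 fold change and its receptor gene a negative one, neither past the edgeR threshold. Plau (ENSMUSG00000021822), which encodes the plasminogen activator urokinase, stood at 478, 418, 451, 263 and 329.5 CPM in Ccr2 KO libraries 1 to 5 and at 299, 269, 216, 199 and 155 CPM in control libraries 1 to 5. Only Ccr2 KO library 4 lay below the highest control library. The log2 fold change was 0.77 (SE 0.21), which did not pass in edgeR and passed in DESeq2. Plaur (ENSMUSG00000046223), the urokinase receptor gene, stood at 169, 93.2, 229, 68.5 and 48.6 CPM in Ccr2 KO libraries 1 to 5 and at 173, 189.7, 104, 98.7 and 290.2 CPM in control libraries 1 to 5, a log2 fold change of -0.49 (SE 0.43). The log2 ratio of Plau to Plaur counts was 1.87 ± 0.67 in Ccr2 KO and 0.49 ± 0.81 in control libraries, and its ranges overlapped, at 0.98 to 2.76 in Ccr2 KO and -0.91 to 1.06 in control libraries.

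Compared per length of exon, as CPM per kilobase (RPKM), the order of the 9 genes was the same at the top in both genotypes and differed below. F13a1 led with 215 ± 75.9 RPKM in Ccr2 KO and 146 ± 57.5 RPKM in control libraries, followed by Plau with 164 ± 37.7 RPKM in Ccr2 KO and 96.1 ± 24.1 RPKM in control libraries (SD, n = 5 each). Plaur was next, with 46.5 ± 28.8 RPKM in Ccr2 KO and 65.3 ± 29.8 RPKM in control libraries. F13a1 and Plau overlapped in both genotypes, and Plau and Plaur overlapped in control libraries only. In control libraries F10 came next, with 23.9 ± 14.2 RPKM and a range that met those of Plaur and of Thbd. In Ccr2 KO libraries it came after Thbd and Procr at 1.41 ± 0.892 RPKM, with a range of 0.468 to 2.35 RPKM that overlapped those of Thbd, Procr, F3, F7 and F5. F7 held place 8 in Ccr2 KO and place 6 in control libraries, at 0.478 ± 0.329 RPKM in Ccr2 KO and 4.47 ± 3.11 RPKM in control libraries, and F5 was last in both.

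Within a genotype the listed genes varied more between libraries than most genes. The standard deviation of log2 CPM of F10 was 1.10 in Ccr2 KO and 0.87 in control libraries, and that of F7 was 0.95 in Ccr2 KO and 1.01 in control libraries, against medians over all tested genes of 0.30 in Ccr2 KO and 0.24 in control libraries. Plau varied least, with 0.36 in Ccr2 KO and 0.37 in control libraries. These medians were not limited to genes of like level, and F7 rested on 12 to 79 counts per Ccr2 KO library. Among all tested genes the abundant F13a1 stood at percentile 75.4 in Ccr2 KO and 76.1 in control libraries. Plau stood at percentile 58.8 in Ccr2 KO and 67.1 in control libraries. Among Ccr2 KO libraries, library 3 was highest for 5 of the 9 genes, and libraries 4 and 5 were lowest for 3 and 4. Among control libraries, library 5 was highest for 5 genes and library 3 lowest for 4. Plau departed from this order among control libraries, with control library 5 its lowest, but was also low in Ccr2 KO libraries 4 and 5. F5 departed from it among Ccr2 KO libraries, with library 5 its highest at 5.59 CPM and library 4 next at 2.54 CPM.

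Other genes of clotting and fibrinolysis, listed by role, showed no change past the threshold. Of 44 such genes, 23 had enough counts to be tested and 8 had no counts in any library. Of the other clotting factors, 3 of 13 were tested, against 4 of 4 genes of the vitamin K cycle. With edgeR 0 of the 23 passed in either direction and 6 had an unadjusted p under 0.05, while 15.3% of all tested genes had one. DESeq2 called 1 lower, the thrombin receptor gene F2rl3, and 1 higher, Lrp1, and limma-voom called 1, Lrp1. The median log2 fold change of the 23 was 0.00, and 11 were negative, against 7258 negative among 14374 tested genes.

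Among other clotting factors, Vwf, which encodes the platelet tether von Willebrand factor, stood at 8.35 ± 2.50 CPM in Ccr2 KO and 4.77 ± 1.62 CPM in control libraries (SD, n = 5 each, edgeR adjusted p = 0.188). F9, the factor IX gene, had a log2 fold change of -0.64 (edgeR adjusted p = 0.340). Of the vitamin K cycle, whose enzymes make the modified glutamates that factors VII and X need, Vkorc1 had a log2 fold change of 0.30 and Nqo1 of 0.76 (edgeR adjusted p = 0.369 and 0.430). The Nqo1 value was 0.11 without Ccr2 KO library 3, which stood at 3.24 CPM. Ggcx, the carboxylase gene, stood at 11.6 ± 2.06 CPM in Ccr2 KO and 11.8 ± 1.03 CPM in control libraries, so its level differed by less than the spread between libraries.

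Among the inhibitors, Pros1, which encodes the vitamin K-dependent anticoagulant protein S, stood at 123 ± 32.1 CPM in Ccr2 KO and 84.1 ± 10.4 CPM in control libraries (SD, n = 5 each, edgeR adjusted p = 0.142). Tfpi2, a Kunitz protease inhibitor gene, had 0.130 ± 0.107 CPM in Ccr2 KO and 0.412 ± 0.131 CPM in control libraries (edgeR adjusted p = 0.195), and its groups did not overlap. Gas6, a further vitamin K-dependent gene, lies 13 protein-coding genes after F10 and was chosen after its values were seen. It rose to 584 ± 89.2 CPM in Ccr2 KO libraries, against 263 ± 49.3 CPM in control libraries, a log2 fold change of 1.15 (edgeR adjusted p = 0.00459). With the alike control pairs summed it was 1.08 and did not pass (edgeR adjusted p = 0.0909).

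Of plasminogen activation, Lrp1, an endocytic receptor that clears protease and inhibitor complexes, stood at 2346 ± 267 CPM in Ccr2 KO and 1609 ± 352 CPM in control libraries (SD, n = 5 each, edgeR adjusted p = 0.106). It passed without control library 5 (edgeR adjusted p = 0.0211). Plat, the tissue plasminogen activator gene, had a log2 fold change of -1.27 (SE 0.56; edgeR adjusted p = 0.319). Of the fibrinolysis inhibitors, Serpinb2, which inhibits urokinase, had a log2 fold change of -0.40 (edgeR adjusted p = 0.781), and F2r, the main thrombin receptor gene, of -0.74 (edgeR adjusted p = 0.700). Without Ccr2 KO library 3, which stood at 28.9 CPM, the F2r value was -2.08 (edgeR adjusted p = 0.130).

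**Figure D4:**
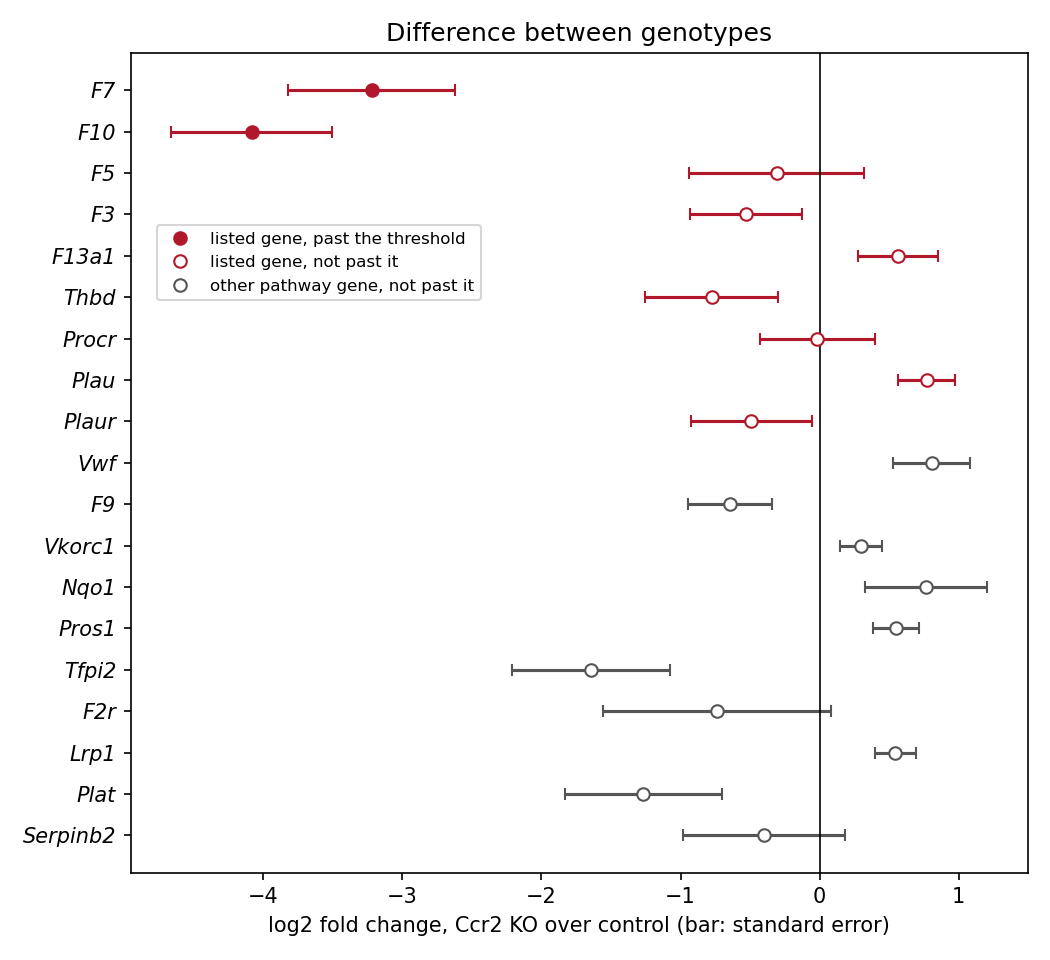
Log2 fold change of Ccr2 KO over control for the 9 listed genes (red) and other named genes of the pathway (grey), with bars of 1 standard error; filled points passed the edgeR threshold. F7 and F10 lie at -3.22 and -4.08, and the other genes shown between -1.64 and 0.81.

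The genes whose levels ran most like F10 across the 10 libraries were B3gnt5, Arhgef37, Thbs1, Hp and Cd177. Likeness was the root-mean-square difference of mean-centred log2 CPM, which was between 0.64 and 0.91 for these 5, against a median of 2.28 over 10901 genes. Thbs1 encodes thrombospondin-1, an adhesive protein of platelets and matrix, and stood at 219 ± 171 CPM in Ccr2 KO and 1034 ± 594 CPM in control libraries (SD, n = 5 each, edgeR adjusted p = 0.0947). Hp encodes haptoglobin and is also on the list of classical monocyte markers. F7 was nearest to Gpr141, Ly6i, Ms4a8a, Itgb7 and Tmem154, with differences of 0.60 to 0.78. The pair differed from each other by 0.998, which placed F7 at rank 8 for F10 and F10 at rank 25 for F7. These distances share the same 10 libraries and follow the genotype difference that chose F7 and F10.

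Some markers of other cells were lower in Ccr2 KO libraries, as F7 and F10 were, and their part in the result was not tested. Of 10 classical monocyte markers, 9 were tested and 5 passed as lower, where 0.543% of all tested genes did. Among the 5 was Ly6c2, at 5.43 ± 3.32 CPM in Ccr2 KO and 85.2 ± 18.3 CPM in control libraries (edgeR adjusted p = 0.00353). With the alike control pairs summed 3 of the 5 passed, Ly6c2 among them (edgeR adjusted p = 0.0367). Within the control group Ly6c2 did not follow F10. Control library 3 had the highest Ly6c2, at 109 CPM, and the lowest F10 of that group, at 27.9 CPM. Vcan, Hp and Fn1 overlapped between the genotypes, with log2 fold changes of -1.40, -3.25 and 0.15. The summed level of the 10, most of which was Fn1, ran from 1668 to 4103 CPM in Ccr2 KO and from 2374 to 5982 CPM in control libraries. In bulk RNA, fewer cells of a type and less RNA per cell cannot be told apart. Neutrophil markers summed to 115 to 213 CPM in Ccr2 KO and 162 to 549.5 CPM in control libraries, which overlapped. The 8 tested had negative log2 fold changes, from -4.85 for Ngp to -0.23 for Retnlg. In edgeR 0 passed and 4 had an unadjusted p under 0.05, while DESeq2 called 4 lower. Csf3r was the highest neutrophil marker in every library, at 75.6 to 130 CPM in Ccr2 KO and 145 to 177 CPM in control libraries. Dendritic cell markers summed to 5.03 to 11.1 CPM in Ccr2 KO and 11.7 to 29.6 CPM in control libraries. Of these Dpp4 passed as lower (edgeR adjusted p = 0.0297, and 0.171 with the alike control pairs summed).

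Endothelial markers summed to between 20.3 and 31.8 CPM in Ccr2 KO and between 33.4 and 85.6 CPM in control libraries. In every control library Pecam1 was the highest of them, at 15.3 to 61.7 CPM. It stood at 5.59 to 13.2 CPM in Ccr2 KO libraries (edgeR adjusted p = 0.0673). The 6 tested genes of the list had negative log2 fold changes, and none passed in edgeR. Control libraries 1 and 2, which had the highest Mcf2l, had the highest endothelial sums, at 79.2 and 85.6 CPM. Pecam1 made up 50.6 and 61.7 CPM of them. Fibroblast markers summed to 272 to 3442 CPM in Ccr2 KO and 649 to 2186 CPM in control libraries, and Ccr2 KO library 3 held the 3442. That library was the highest of the Ccr2 KO group for 5 of the listed genes, F10, F3, F13a1, Procr and Plaur. Hepatocyte markers were at or near 0, with sums of 0.193 to 0.684 CPM in Ccr2 KO and 0.316 to 0.510 CPM in control libraries, and Ttr and Serpina1a had no counts. Of the platelet and megakaryocyte markers, Gp1bb had no counts and 5 of 8 stayed under 1 CPM in every library. Their sums were 1.40 to 13.6 CPM in Ccr2 KO and 1.80 to 5.76 CPM in control libraries. T and NK cell markers summed to 88.9 to 223 CPM in Ccr2 KO and 77.3 to 186 CPM in control libraries. The gene with the highest level in each sum was Cd4, which passed as higher, at 135 ± 35.1 CPM in Ccr2 KO and 61.6 ± 12.3 CPM in control libraries (edgeR adjusted p = 0.0223, and 0.151 with the alike control pairs summed). The other 8 tested genes of that list had negative log2 fold changes, from -2.09 to -0.87, and none passed. Keratinocyte markers summed to 4.45 to 7.73 CPM in Ccr2 KO and 3.0 to 15.4 CPM in control libraries. Melanoma markers summed to 31.2 to 59.95 CPM in Ccr2 KO and 33.0 to 57.3 CPM in control libraries. Most of each sum was Mitf and Sox10, which averaged 19.2 and 24.9 CPM in Ccr2 KO and 19.6 and 27.4 CPM in control libraries. Mlana, Tyr, Dct and Tyrp1 stayed under 1 CPM in every library. Trpm1 passed as higher, with a log2 fold change of 1.96 (edgeR adjusted p = 0.0270, and 0.167 with the alike control pairs summed).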

How the data were processed

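Polyadenylated RNA from 50 ng of total RNA was made into directional libraries, per the labels' protocols, and the submitters' processing notes name STAR and the GRCm39 build, with neither a version nor an annotation. The deposited files hold whole-number read counts per gene for each library, unstranded and by strand. The reverse-strand column was used, since 96.2% to 96.5% of strand-assigned counts fell in it. Summary rows (unmapped 6.87% to 8.07% of reads, no gene 3.63% to 5.68%, ambiguous 1.83% to 2.10%) were left out, and multimapping reads are listed as 0, so genes with near-identical copies, such as Ly6c2 and Ly6i, are uncertain. A combined table whose 10 columns carry no names and a list of genotypes were not used. Symbols matched 52083 of 55359 identifiers.

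The genes and lists were chosen with earlier results of these data known. The test was that of edgeR 4.0.16, run in R 4.3.3 (filterByExpr with a minimum count of 10, TMM, quasi-likelihood F-test, Benjamini-Hochberg adjustment over all 14374 genes, threshold 0.05), and the procedure was tested on simulated data. The standard error is the log2 fold change over the square root of F. CPM use TMM-scaled library sizes. RPKM and gene order use GENCODE M21 exons on GRCm38, another build than the counts. The genes named are the 9, those of each role past the threshold or else the 2 with the smallest p, 10 neighbours, Ccr2, and the 5 nearest profiles (mean of at least 2 CPM, prior count of 2). A gene that this rule names is not reported here. Ggcx, F2rl3, Gas6, and the markers given singly were named after their values were seen. Alternatives were DESeq2 1.42.0 size factors or test, limma 3.58.1 voom, no composition factor, other filters (none, or 1 CPM in 5 libraries), unstranded counts, a replicate block, each library left out, and alike libraries summed. Figures used matplotlib 3.10.9. Intervals between libraries are SD, and low counts limit F7, Mcf2l and Proz.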

Additional observations from a re-analysis of the deposited data

Results flagged for a closer look

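In 50 groups of 5 libraries with a mean of at least 1 CPM, 6 had a library whose gap to the next exceeded 0.71 of the group's range. Chance flags about 5% of groups of normally distributed values. The gaps were taken on CPM without logs and the groups share libraries, so that rate need not hold here. All 6 flags were the highest library of their group. Control library 5 stood apart for F13a1 at 1655 CPM, with the next control library at 924 CPM, and for Thbd at 41.2 CPM, with the next at 17.7 CPM. Ccr2 KO library 1 stood apart for Thbd at 25.7 CPM, with the next at 8.97 CPM, and for the neighbour Atp11a at 67.6 CPM, with the next at 43.1 CPM. Ccr2 KO library 3 stood apart for Nqo1 at 3.24 CPM, with the next at 0.922 CPM, and for F2r at 28.9 CPM, with the next at 7.73 CPM.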

How the results depend on the processing

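Over all alternatives F10 kept a log2 fold change between -4.34 and -3.56, and F7 between -3.70 and -2.83. The 203 genes past the threshold became 800 with DESeq2, 446 with limma-voom, 29 with the alike control libraries summed, 8 with Ccr2 KO libraries 4 and 5 summed too, 50 without those 2 libraries, and 62 to 267 with 1 library left out. The last-named sums and omissions of Ccr2 KO libraries were chosen after seeing the data. The count of listed genes called lower, 2, became 1 with limma-voom, 1 with the alike control libraries summed, 0 with Ccr2 KO 4 and 5 summed too, 1 without those libraries, and 1 to 2 with 1 library left out; the count higher, 0, became 1 with DESeq2. Other pathway genes became 1 lower and 1 higher with DESeq2, 1 higher with limma-voom, and 0 to 1 higher with 1 library left out. The 1 neighbour called, Mcf2l, became 0 with limma-voom, with at least 1 CPM in 5 libraries (which left it untested), with either sum, without Ccr2 KO 4 and 5, and 0 to 1 with 1 library left out. Procr, at -0.02, turned to 0.021 with no composition factor, 0.12 with all alike libraries summed and 0.41 without Ccr2 KO 4 and 5, and ran from -0.44 to 0.19 with 1 library left out. F5 ran from -1.03 to 0.082 with 1 library left out, the highest without control library 4. The F10 to F7 log2 ratio difference ran from -1.44 to -0.64 with 1 library left out. The cause of these changes was not tested.

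Title numbers did not pair the libraries, as the correlations of deviations between same-numbered libraries were 0.34, 0.08, -0.53, 0.18 and -0.22. With the replicate block 55 genes passed, 1 of the 9 listed genes (F7, not F10) and 0 neighbours.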

Other observations

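F2rl3, the gene of protease-activated receptor 4, through which thrombin acts on mouse platelets, ranged from 0 to 0.12 CPM in Ccr2 KO libraries. It had 5.04 and 4.45 CPM in control libraries 1 and 2, and at most 0.162 CPM in control libraries 3, 4 and 5. It was not tested by edgeR because too few libraries held enough counts, and DESeq2 gave a log2 fold change of -5.65 (adjusted p = 0.0077). The 2 libraries that carry the signal are one of the alike control pairs.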
